A study of Homo sapiens with 6 samples.

Results

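The 10 genes AP4M1, TAF6, CNPY4, MBLAC1, LAMTOR4, C7orf43, COPS6, ZNF3, STAG3 and GAL3ST4 lie next to MCM7 on the long arm of chromosome 7. They were taken by symbol from the 58302 genes of the count table, and each symbol had a single row. They were chosen for their position and not for their RNA level, though with earlier results of these data known. The comparison asks whether they stay at their level when the MCM7 mRNA is lost. RNA was sequenced from serum-starved hTert 1BR3 cells, skin fibroblasts of the forearm made immortal with telomerase, which form a primary cilium when serum is withdrawn. Of the 6 samples, 3 had received MCM7 siRNA, a pool of 4 siRNAs, and 3 a non-targeting control siRNA, and by the study's methods the cells of both groups were starved after transfection. All samples are of a single cell line, and no source states that each replicate was a culture of its own. The p-values therefore refer to the scatter among these 6 samples, which may be technical.

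MCM7 is a subunit of the ring-shaped helicase that unwinds DNA ahead of the replication fork. An siRNA guides the cleavage of the mRNA that matches it and acts on the transcript, not on the gene. Genes that start back to back, on opposite strands and a short distance apart, can share promoter sequence. A cluster of microRNA genes lies within MCM7.

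The total count was 13721281, 20112653 and 23969024 in the MCM7 siRNA libraries and 18669386, 20150568 and 21380345 in the control libraries. In this paragraph, CPM are read counts scaled to the total count of the library alone, without TMM factors. The sum of the 8 fibroblast markers was 71850 to 75610 CPM in the MCM7 siRNA libraries. It was 67950 to 73470 CPM in the control libraries. Most of either sum was COL1A1 and COL1A2. Of the 8, COL3A1, PDGFRB and LUM rose and VIM fell (4 past an adjusted p of 0.05 by edgeR, 50% of the list against 12.8% of all tested genes), so the makeup of the list differed between the groups though all 8 were present in every library; the part of this in the results below was not tested. COL3A1, a fibrillar collagen, was at 9798 to 11430 CPM with MCM7 siRNA and 7841 to 8452 CPM with control siRNA (adjusted p = 3.06e-05, edgeR), and VIM, the intermediate filament protein of mesenchymal cells, at 2884 to 3316 CPM with MCM7 siRNA and 3621 to 3884 CPM with control siRNA (adjusted p = 8.45e-04, edgeR). The 14 markers of epithelium, endothelium, blood, melanocytes and muscle summed to between 2.21 and 2.78 CPM in the MCM7 siRNA libraries and between 2.25 and 3.27 CPM in the control libraries, and KRT5, CD3E and MYOD1 were at 0 in all 6 libraries. TERT, the catalytic subunit of telomerase, was at 125.2 to 126.7 CPM in the MCM7 siRNA libraries and 162.2 to 167.1 CPM in the control libraries. It was lower with MCM7 siRNA (log2 fold change -0.40, adjusted p = 7.82e-07, edgeR), and the part of this in the results below was not tested.

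The genes lie in the order ZNF3, COPS6, MCM7, AP4M1, TAF6, CNPY4, MBLAC1, LAMTOR4, C7orf43, GAL3ST4 and STAG3 along the plus strand of GRCh38 (positions of GENCODE 44). MCM7 (ENSG00000166508) is on the minus strand at 100092233 to 100101940. ZNF3, TAF6, C7orf43 and GAL3ST4 are on its strand, and the other 6 are on the plus strand. The end of COPS6 lies 45 bp from the end of MCM7, and STAG3, the farthest member, lies 75622 bp away. The map of the locus shows the genes to scale.

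**Figure D1:**
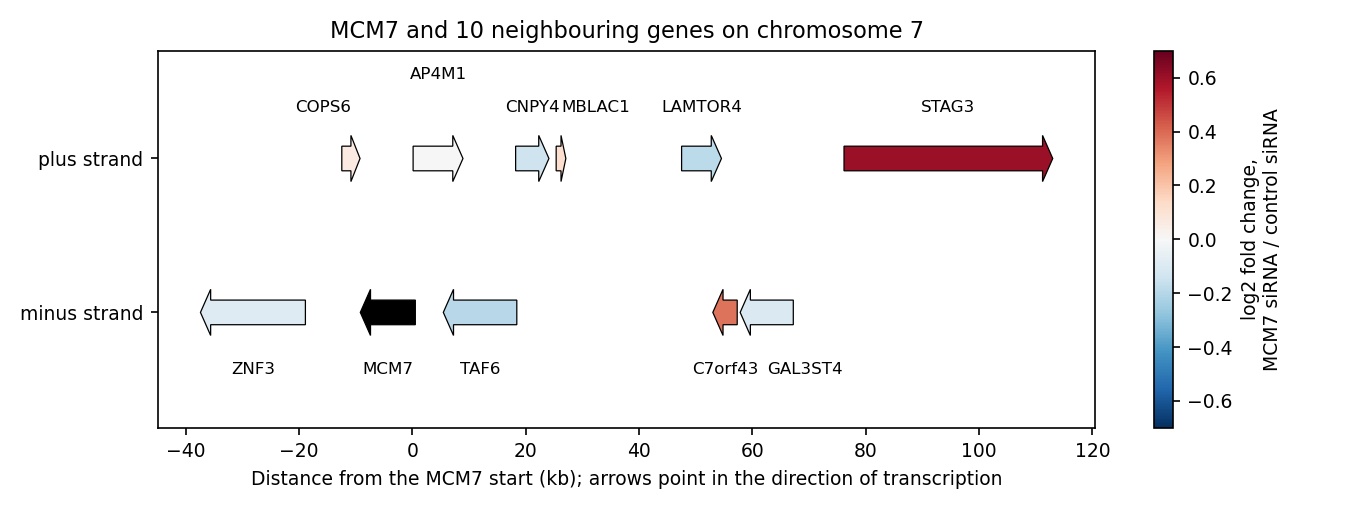
Map of MCM7 and the 10 neighbouring genes, with distance from the MCM7 start in kb on the x axis, the strand on the y axis and arrows pointing in the direction of transcription. Colour gives the log2 fold change (MCM7 siRNA over control siRNA), which ran between -0.20 and 0.60 among the 10 neighbours, and MCM7 is drawn in black since its value of -3.15 is outside the scale.

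MCM7 and AP4M1 form a head-to-head pair. AP4M1 (ENSG00000221838, 100101549 to 100110345, plus strand) overlaps the body of MCM7 by 392 bp, and the starts of their canonical transcripts are 246 bp apart. The 300 bases around the AP4M1 start are printed because they hold the start of MCM7 as well, at base 5 on the minus strand, with the AP4M1 start at base 251. They are the plus strand of chr7:100101393-100101692 (GRCh38.p14), taken from RefSeq and written 5′ to 3′, with the matches to the searched motifs in capitals.
AP4M1 window: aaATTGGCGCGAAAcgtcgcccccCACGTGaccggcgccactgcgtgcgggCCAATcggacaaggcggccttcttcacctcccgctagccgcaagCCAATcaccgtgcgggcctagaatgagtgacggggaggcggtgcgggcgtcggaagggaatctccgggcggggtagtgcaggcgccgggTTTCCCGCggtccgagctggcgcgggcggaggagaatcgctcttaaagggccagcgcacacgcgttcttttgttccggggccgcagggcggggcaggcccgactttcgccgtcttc

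The motifs searched on both strands were the CCAAT box (CCAAT), the E-box (CACGTG) and 4 forms of the E2F motif (TTTCCCGC, TTTCGCGC, TTTGCCGC and TTTGGCGC). The window held a CCAAT box on the minus strand at base 3, an E2F match on the minus strand at base 7 that shares 1 base with it, an E-box at base 25, CCAAT boxes at bases 52 and 96, and a further E2F match at base 185. Of 35116 RefSeq windows of the same length, 3.31% held an E2F match, 7.26% an E-box and 34.6% a CCAAT box. For 8 of the 10 members RefSeq gave 13 windows, 1 to 3 for each gene, some of which overlap. Of these 13, an E2F match was found in 1, the printed window of AP4M1. The E-box was found in 4 windows, of AP4M1, LAMTOR4 and STAG3. A CCAAT box was found in 5, of AP4M1, LAMTOR4, STAG3 and TAF6, where TAF6 held it in 1 of its 3 windows. A match is a description of the letters and not a binding site or a cause.

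The target was checked first. MCM7 was at 3.51, 3.33 and 3.18 CPM in the MCM7 siRNA libraries, against 27.3, 29.6 and 31.3 CPM in the control libraries. Here and below, CPM are read counts scaled to library size with TMM factors. All 3 MCM7 siRNA libraries were below all 3 control libraries, and MCM7 fell by 3.15 ± 0.10 on the log2 scale (fitted SE, n = 3 per group; adjusted p = 1.42e-19, edgeR), which leaves 11.3% of the control level with a 95% interval of 9.78% to 13.0%. It had the smallest p of the 14667 genes tested. In RNA pooled from many cells, fewer cells with the transcript and less of it per cell cannot be told apart.

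None of the 10 neighbours passed an adjusted p of 0.05 by edgeR's quasi-likelihood test, where 12.8% of all tested genes did, 6.18% higher and 6.65% lower with MCM7 siRNA. DESeq2 gave an adjusted p for 8 of the 10, all but MBLAC1 and STAG3, and for 10970 genes in all. None of the 8 passed by DESeq2, where 12.1% of the 10970 did, by both tools, where 12% did, or by both tools with a change of at least 1.5-fold, where 0.784% did. At an unadjusted edgeR p under 0.05 there were 4 of the 10, TAF6, LAMTOR4, C7orf43 and STAG3, against 26.1% of all tested genes, and without control siRNA replicate 1 there was 1. All 10 passed the filter on low counts. The fold change was above 0 for 5 members and below 0 for 5, with a median of -0.04 on the log2 scale, against -0.0028 over all tested genes. The median size of the change, whatever its sign, was 0.13 for the members and 0.12 for all tested genes. The groups did not overlap for 5 members, as was the case for 29.6% of all tested genes. Of these 5, TAF6, CNPY4 and LAMTOR4 were lower with MCM7 siRNA, as were 15% of all tested genes, and C7orf43 and STAG3 were higher, as were 14.6%. A p that misses the threshold does not show that the levels were equal, so the 95% interval of each change is given. Over the 10 members these intervals reached down to 73.6% of the control level (MBLAC1) and up to 215.4% (STAG3), while the interval of MCM7 ended at 13.0%. The plot of intervals shows this separation.

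**Figure D2:**
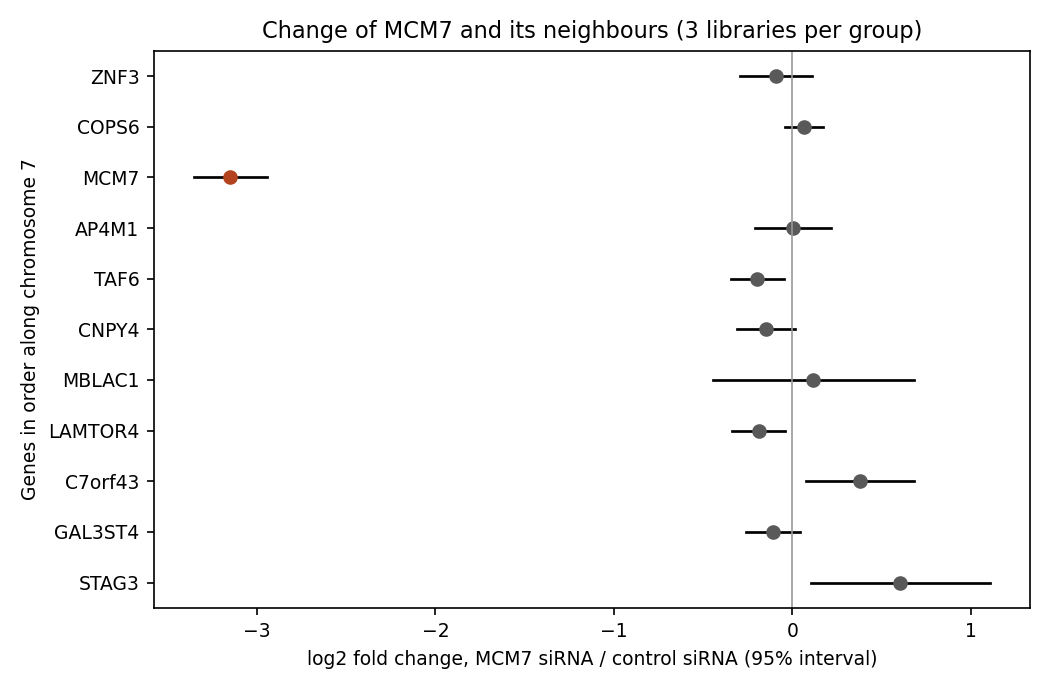
Log2 fold change (MCM7 siRNA over control siRNA) on the x axis for MCM7 and the 10 neighbours, listed on the y axis in their order along chromosome 7; points are the edgeR estimates and lines the 95% intervals (n = 3 per group). MCM7 is at -3.15, and the interval of each neighbour lies between -0.44 and 1.11.

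AP4M1 encodes the mu subunit of AP-4, an adaptor coat that sorts membrane proteins at the trans-Golgi network. It was at 8.85, 7.84 and 7.86 CPM in the MCM7 siRNA libraries, against 8.15, 8.22 and 7.89 CPM in the control libraries. The highest and the lowest of the 6 values both came from MCM7 siRNA libraries, so the groups overlapped. The mean was 8.18 ± 0.578 CPM with MCM7 siRNA and 8.09 ± 0.177 CPM with control siRNA (SD, n = 3 each), and the log2 fold change was 0.01 ± 0.10 (adjusted p = 0.985, edgeR). By the interval, AP4M1 was between 86.6% and 116.3% of its control level, so the gene whose start lies within the same 300 bases as that of MCM7 did not share a loss of the size seen for MCM7. The ratio of the 2 genes' deposited RPKM values (reads scaled by depth and by gene length, a level per length), MCM7 over AP4M1, was 0.427, 0.458 and 0.435 in the MCM7 siRNA libraries and 3.61, 3.88 and 4.27 in the control libraries. With COPS6 in the place of MCM7 this ratio was 16.9, 18.4 and 18.9 with MCM7 siRNA. With control siRNA it was 17.9, 16.3 and 18.2, and there the groups overlapped. TAF6 over AP4M1 was 3.12, 3.22 and 3.21 with MCM7 siRNA. For control siRNA that ratio was 3.82, 3.6 and 3.6, and the groups did not overlap. The overlap of AP4M1 and MCM7 is between strands, and by the study's methods reads were counted by strand.

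COPS6 (ENSG00000168090, 100088969 to 100092187, plus strand) faces MCM7 tail to tail. It encodes a subunit of the COP9 signalosome, which removes the ubiquitin-like protein NEDD8 from cullin ligases, and it had the most reads of the 10 members, between 1217 and 2107 per library. Its level was 89.0, 85.6 and 88.1 CPM with MCM7 siRNA, against 86.5, 79.7 and 85.2 CPM with control siRNA. The groups overlapped, since MCM7 siRNA replicate 2 was below control replicate 1. Its log2 fold change was 0.06 ± 0.05 (adjusted p = 0.483, edgeR), and the interval of 97.0% to 112.5% of control was the narrowest of the 10. Without control siRNA replicate 2 the log2 fold change was 0.03.

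ZNF3 (ENSG00000166526, 100064033 to 100082548, minus strand), a zinc finger protein of the nucleus, lies on the far side of COPS6 at 9684 bp from MCM7. It was at 10.02, 9.60 and 10.2 CPM with MCM7 siRNA and at 10.3, 9.72 and 11.7 CPM with control siRNA. The groups overlapped. ZNF3 had a log2 fold change of -0.09 ± 0.10 (adjusted p = 0.61, edgeR), with an interval of 81.7% to 107.9% of control. Without control siRNA replicate 3 it was -0.012, and without control siRNA replicate 2 it was -0.15.

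TAF6 (ENSG00000106290, 100106876 to 100119841, minus strand) is a histone-fold subunit of TFIID, the general factor that brings RNA polymerase II to promoters. Its body overlaps AP4M1 by 3470 bp, tail to tail, and CNPY4 by 208 bp, head to head. On its own strand TAF6 overlaps AC073842.2, a long non-coding RNA gene that had 0 reads in total. Reads of TAF6 in the shared stretch can be lost from the count, which was not tested. TAF6 was at 23.9, 21.8 and 21.9 CPM in the MCM7 siRNA libraries, against 27.0, 25.6 and 24.6 CPM in the control libraries. All 3 MCM7 siRNA values were below all 3 control values, by a gap of less than 1 CPM between the nearest libraries. The log2 fold change was -0.20 ± 0.07 with an interval of -0.34 to -0.05 (unadjusted p = 0.0104, adjusted p = 0.068, edgeR; adjusted p = 0.161, DESeq2), which is 87.3% of control.

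CNPY4 (ENSG00000166997, 100119634 to 100125508, plus strand), a saposin-like protein of the endoplasmic reticulum tied to the handling of Toll-like receptor 4, starts 276 bp from the start of TAF6. It was at 16.3, 17.2 and 16.9 CPM with MCM7 siRNA, against 20.4, 18.1 and 17.5 CPM with control siRNA. Here too the groups did not overlap and the MCM7 siRNA libraries were the lower ones, with control replicate 1 the farthest from the rest. CNPY4 had a log2 fold change of -0.15 ± 0.08 (adjusted p = 0.251, edgeR), with an interval of 80.6% to 101.2% of control. Without control siRNA replicate 1 it was -0.08.

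LAMTOR4 (ENSG00000188186, 100148912 to 100155944, plus strand) encodes a subunit of Ragulator, the complex that anchors the Rag GTPases, and through them mTORC1, to the lysosome. It was at 22.2, 22.9 and 22.8 CPM with MCM7 siRNA, against 27.8, 26.0 and 23.9 CPM with control siRNA. The 3 MCM7 siRNA values lay close together and below all control values. The log2 fold change was -0.19 ± 0.07 with an interval of -0.34 to -0.04 (unadjusted p = 0.0137, adjusted p = 0.0819, edgeR; adjusted p = 0.178, DESeq2), which is 87.7% of control. Without control siRNA replicate 1 the log2 fold change was -0.14.

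C7orf43 (ENSG00000146826, 100154420 to 100158723, minus strand), named TRAPPC14 in current annotation, encodes a subunit of the TRAPPII complex of vesicle traffic that has been linked to the early steps of cilium formation. It overlaps LAMTOR4 by 1525 bp, tail to tail and on the other strand. Its level was 5.41, 4.61 and 5.48 CPM in the MCM7 siRNA libraries, against 3.06, 4.19 and 4.58 CPM in the control libraries. All MCM7 siRNA values were above all control values, though MCM7 siRNA replicate 2 and control replicate 3 nearly met, at 94 and 97 reads. The log2 fold change was 0.38 ± 0.15 with an interval of 0.08 to 0.68 (unadjusted p = 0.0162, adjusted p = 0.0905, edgeR; adjusted p = 0.202, DESeq2), which is 129.9% of control. Control replicate 1 was the lowest library, and without it the log2 fold change was 0.23. C7orf43 did not pass the threshold, and neither did LAMTOR4, which it overlaps.

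GAL3ST4 (ENSG00000197093, 100159244 to 100168617, minus strand), a sulfotransferase of the Golgi that acts on galactose of O-glycans, lies 520 bp from C7orf43. It was at 19.0, 18.7 and 20.7 CPM with MCM7 siRNA and at 21.4, 21.1 and 20.7 CPM with control siRNA. The highest MCM7 siRNA library was just above the lowest control library, so the groups overlapped. For GAL3ST4 the log2 fold change was -0.11 ± 0.07 (adjusted p = 0.385, edgeR), with an interval of 83.5% to 103.1% of control.

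STAG3 (ENSG00000066923, 100177563 to 100214387, plus strand) encodes a subunit of the cohesin ring used in meiosis and had few reads in these cells. It was at 17, 31 and 44 reads (1.24, 1.52 and 1.84 CPM) with MCM7 siRNA, against 22, 21 and 19 reads (1.18, 1.05 and 0.897 CPM) with control siRNA. All MCM7 siRNA values were above all control values, with MCM7 siRNA replicate 1, the shallowest library, the nearest to the controls. The log2 fold change of 0.60 ± 0.25 was the largest of the 10, with an interval of 0.10 to 1.11 (unadjusted p = 0.0199, adjusted p = 0.104, edgeR). DESeq2 gave no adjusted p for it. STAG3 has partial copies elsewhere on the chromosome, and only uniquely mapping reads were counted, so its level is uncertain.

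MBLAC1 (ENSG00000214309, 100126785 to 100128495, plus strand), a nuclease of the metallo-beta-lactamase fold that acts on histone pre-mRNA, had the fewest reads. It was at 13, 21 and 25 reads (0.951, 1.03 and 1.05 CPM) with MCM7 siRNA, against 22, 18 and 16 reads (1.18, 0.897 and 0.756 CPM) with control siRNA. The 3 MCM7 siRNA values lay within the range of the control values. MBLAC1 had a log2 fold change of 0.12 ± 0.27 (adjusted p = 0.836, edgeR), and the interval of 73.6% to 160.1% of control means that at this depth a moderate change in either direction was not detectable.

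**Figure D3:**
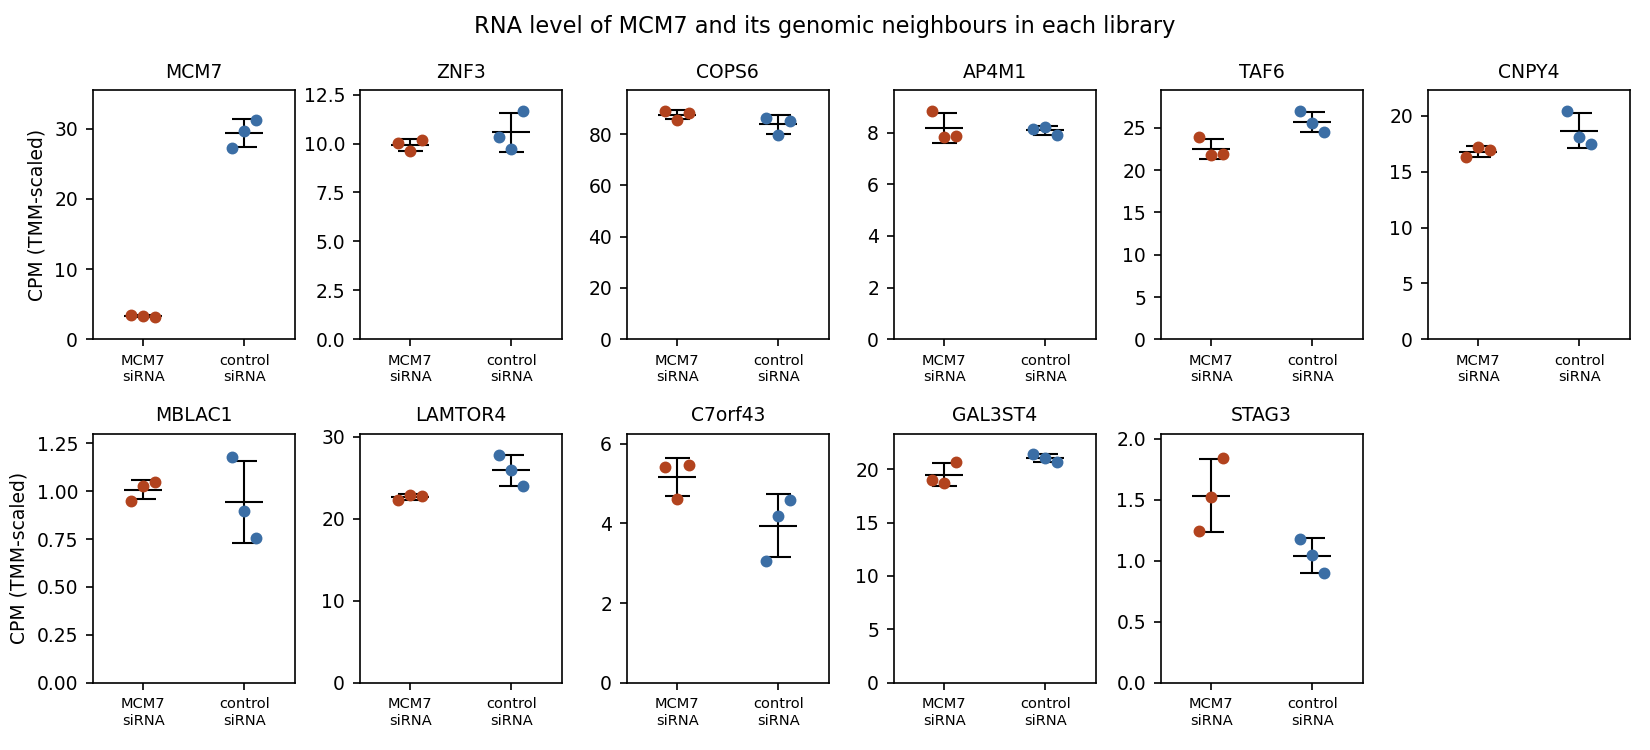
RNA level in CPM (TMM-scaled, y axis from 0) of MCM7 and the 10 neighbours in each MCM7 siRNA library and each control siRNA library; points are libraries, and bars the mean and SD (n = 3 per group). MCM7 is at 3.18 to 3.51 CPM with MCM7 siRNA and 27.3 to 31.3 CPM with control siRNA, while the 2 groups of each neighbour overlap or lie side by side.

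The 6 genes of the plus strand had a median log2 fold change of 0.03, and the 4 on the strand of MCM7 a median of -0.10. TAF6 and CNPY4, back to back, both had a fold change below 0, and LAMTOR4 and C7orf43, end to end, had changes on opposite sides of 0. The interval held no change for 6 members and did not hold it for TAF6, LAMTOR4, C7orf43 and STAG3.

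The members differ widely in level. In deposited RPKM, which takes gene length into account, COPS6 was the highest, at 31.3 ± 0.328 with MCM7 siRNA and 29.7 ± 1.302 with control siRNA (SD, n = 3 each). LAMTOR4 followed with 11.7 ± 0.276 RPKM with MCM7 siRNA and 13.3 ± 1.04 RPKM with control siRNA, and then CNPY4 with 6.81 ± 0.243 RPKM with MCM7 siRNA and 7.52 ± 0.646 RPKM with control siRNA. MCM7 was at 0.764 ± 0.0378 RPKM with MCM7 siRNA and 6.67 ± 0.424 RPKM with control siRNA. By group mean it stood between CNPY4 and TAF6 in control cells, and between C7orf43 and MBLAC1 in MCM7 siRNA cells. The control libraries of MCM7 overlapped those of CNPY4, TAF6 and GAL3ST4, so its place among these was not resolved.

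TAF6 was at 5.53 ± 0.263 RPKM with MCM7 siRNA and 6.26 ± 0.321 RPKM with control siRNA. GAL3ST4, at 5.74 ± 0.290 RPKM with MCM7 siRNA and 6.17 ± 0.131 RPKM with control siRNA, could not be ordered against it, since their libraries overlapped in both groups. ZNF3 (1.84 ± 0.0401 RPKM with MCM7 siRNA and 1.94 ± 0.175 RPKM with control siRNA), AP4M1 (1.74 ± 0.113 and 1.704 ± 0.0436 RPKM in the same groups) and C7orf43 (1.59 ± 0.134 and 1.204 ± 0.237 RPKM) formed a lower tier. Within that tier, ZNF3 and AP4M1, and AP4M1 and C7orf43, overlapped in the MCM7 siRNA libraries and not in the control libraries. MBLAC1, at 0.644 ± 0.0353 RPKM with MCM7 siRNA and 0.598 ± 0.139 RPKM with control siRNA, and STAG3, at 0.179 ± 0.0348 RPKM with MCM7 siRNA and 0.121 ± 0.0169 RPKM with control siRNA, were the lowest. The order of the members by mean RPKM was the same in both groups but for TAF6 and GAL3ST4.

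The microRNA genes MIR25, MIR93 and MIR106B, which lie within MCM7 on the same strand, had 4, 0 and 0 reads over all 6 libraries. Libraries of poly(A)+ RNA are not made to hold mature microRNAs or their hairpins, so these genes were not measured here.

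Likeness of pattern was measured as the root mean square difference, over the 6 libraries, of log2 CPM centred on each gene's mean. The tested genes closest to MCM7 were PRX (0.149), LINC01128 (0.649) and ZNF468 (0.74), none of which is a neighbour. Their log2 fold changes were -3.34, -1.87 and -1.77. For MCM7 this distance mostly restates the fold changes and is not a separate line of evidence. The 10 neighbours lay between 1.46 (TAF6) and 1.82 (STAG3) from MCM7. The genes closest to AP4M1 were CDC27 (0.0151), PDZRN3 (0.0159) and DNALI1 (0.0203), and among the members COPS6 was the closest to it (0.0716).

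The other genes around MCM7 gave a similar picture. Of 61 further genes of the table within 500 kb of MCM7, 13 had enough reads, and none passed by edgeR, nor by DESeq2 among the 11 to which it gave an adjusted p. At an unadjusted edgeR p under 0.05, where 26.1% of all tested genes passed, there was 1, the zinc finger gene ZSCAN25 (log2 fold change 0.26, unadjusted p = 0.0344, adjusted p = 0.15), named after its values were seen. The median log2 fold change of the 13 was 0.04 and the range -0.21 to 0.26. The nearest was ZSCAN21, a zinc finger gene 27.2 kb away and so closer to MCM7 than 4 of the members, at 3.22, 3.63 and 3.09 CPM with MCM7 siRNA and 3.59, 4.54 and 3.35 CPM with control siRNA. Its groups overlapped, and the log2 fold change was -0.21 ± 0.16 (adjusted p = 0.442, edgeR). ZKSCAN1 (50.5 kb), a further zinc finger gene, had a log2 fold change of 0.12 ± 0.06 (adjusted p = 0.216, edgeR), and GATS (120.7 kb) of 0.17 ± 0.12 (adjusted p = 0.388, edgeR).

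Within 1000 kb, 38 further genes were tested, and 3 fell, 7.89% of those tested against 6.65% lower among all genes. They were named after their values were seen, and all lie 500 kb or more from MCM7. PCOLCE, an enhancer of procollagen processing at 500.4 kb, averaged 722.3 ± 48.0 CPM with MCM7 siRNA and 830.9 ± 9.99 CPM with control siRNA (log2 fold change -0.20, adjusted p = 0.00623, edgeR). EPHB4, an ephrin receptor at 700.6 kb, averaged 44.8 ± 3.10 CPM with MCM7 siRNA and 51.8 ± 3.14 CPM with control siRNA (log2 fold change -0.22, adjusted p = 0.0199, edgeR). TRIP6, a LIM protein of focal adhesions at 765.4 kb, averaged 80.7 ± 4.24 CPM with MCM7 siRNA and 98.8 ± 3.48 CPM with control siRNA (log2 fold change -0.29, adjusted p = 2.79e-04, edgeR; SD, n = 3 each). The plot by distance shows MCM7 alone at the bottom.

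**Figure D4:**
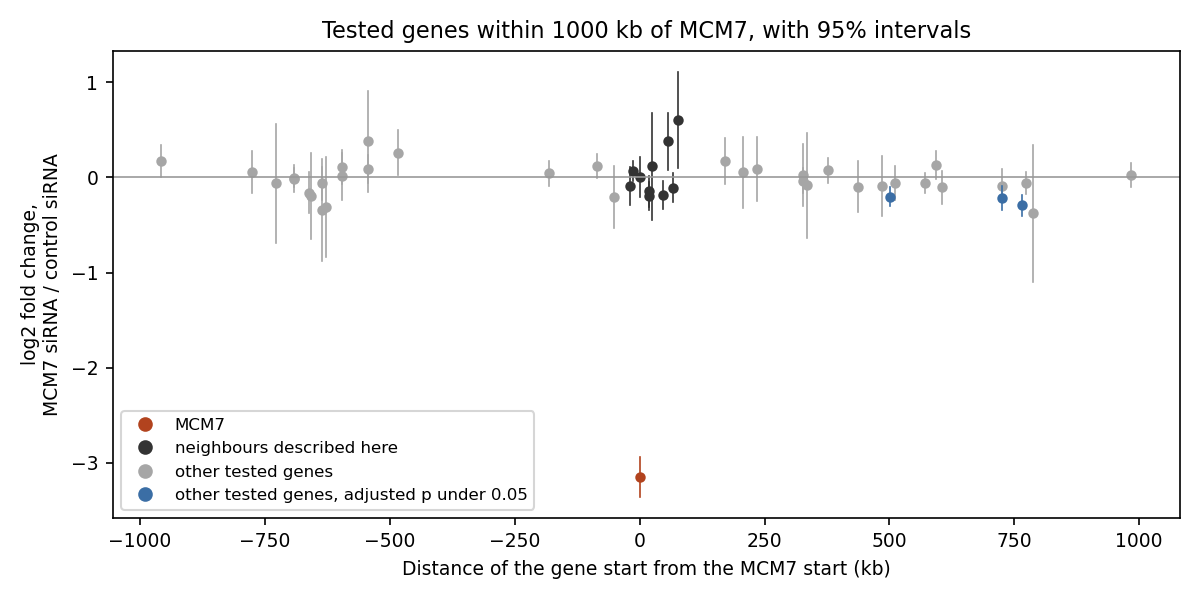
Log2 fold change (MCM7 siRNA over control siRNA, y axis) with 95% intervals for each tested gene within 1000 kb, against the distance of its start from the MCM7 start in kb (x axis). MCM7 stands at -3.15, the 10 neighbours lie between -0.20 and 0.60, and the 3 genes past the threshold, at 500.4 kb or more, lie between -0.29 and -0.20.

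Several members work in complexes, and the other genes of those complexes, encoded elsewhere in the genome, were counted beside them and read against 12.8% of all tested genes past the threshold. Of the 4 other tested AP-4 genes, 1 passed. This was AP4E1, the epsilon subunit, at 21.5, 25.4 and 20.0 CPM with MCM7 siRNA and 16.6, 18.1 and 15.3 CPM with control siRNA, with no overlap of the groups. It rose by 0.42 ± 0.09 on the log2 scale (adjusted p = 0.00126, edgeR; 0.00217, DESeq2). AP4B1 (0.08), AP4S1 (-0.14) and TEPSIN (0.15), an accessory protein of the coat, did not pass.

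The TFIID list held 16 tested genes, of which 15 encode TFIID subunits or their variants and TAF6L the paralog of TAF6 in the SAGA-type complexes. None passed by edgeR or DESeq2, and 6 of the 16 had an unadjusted edgeR p under 0.05, against 26.1% of all tested genes, with a median log2 fold change of 0.09. TAF6L had a log2 fold change of -0.02 (adjusted p = 0.96, edgeR). None of 14 TRAPP genes passed by edgeR, nor by DESeq2 among the 12 to which it gave an adjusted p, and 3 of the 14 had an unadjusted edgeR p under 0.05, against the same 26.1%, with a median of -0.02. Of 9 COP9 signalosome genes, COPS7A fell, at 67.8 ± 6.70 CPM with MCM7 siRNA and 77.2 ± 0.251 CPM with control siRNA (log2 fold change -0.19 ± 0.06, adjusted p = 0.0379, edgeR; 0.0717, DESeq2). The other 8 ranged between -0.06 and 0.16 on the log2 scale.

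Of 8 Ragulator and Rag genes, LAMTOR3, which forms a dimer with LAMTOR2 in the complex, rose, at 25.7 ± 0.523 CPM with MCM7 siRNA and 22.3 ± 0.937 CPM with control siRNA (log2 fold change 0.21 ± 0.07, adjusted p = 0.0478, edgeR; 0.11, DESeq2). Of 6 tested cohesin genes, STAG2, the paralog of STAG3 used in dividing body cells, rose, at 91.2 ± 5.99 CPM with MCM7 siRNA and 80.4 ± 6.32 CPM with control siRNA (log2 fold change 0.18 ± 0.06, adjusted p = 0.0429, edgeR; 0.075, DESeq2). Its groups overlapped. All 6 tested cohesin genes had a fold change above 0, as did 49.3% of all tested genes. Of the 6, 3 had an unadjusted edgeR p under 0.05, against 26.1% of all tested genes. The median log2 fold change of the 6 was 0.12, against -0.0028 over all tested genes. The median size of the change, whatever its sign, was 0.12 for both. The tested paralogs of CNPY4 and MBLAC1 were CNPY2, CNPY3 and MBLAC2, and no paralog of GAL3ST4 was tested. Of these 3, CNPY3, a chaperone of Toll-like receptors, fell, at 25.6 ± 1.496 CPM with MCM7 siRNA and 32.6 ± 2.19 CPM with control siRNA (log2 fold change -0.35 ± 0.07, adjusted p = 8.1e-04, edgeR; 0.00136, DESeq2). Of the 5 partner genes past the threshold, AP4E1 and CNPY3 passed by both tools and COPS7A, LAMTOR3 and STAG2 by edgeR alone. On leaving out each library in turn, the count of Ragulator and Rag genes past the threshold was 0 in 6 of 6 fits, that of the COP9 signalosome in 5 and that of cohesin in 4.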

How the data were processed

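Libraries were stranded, made from poly(A)+ RNA and read from a single end. According to the methods of the study, a read was counted, by strand, where it mapped to a single place within an annotated locus, so reads of near-identical copies and of genes that overlap on the same strand can be lost. Named in the submitters' processing notes are the build GRCh38, featureCounts 1.5.0, TopHat2 2.1.0 and bcl2fastq 1.8.4. The authors deposited raw read counts per gene, RPM values (counts scaled to the reads on genes in the library) and RPKM values (RPM divided by gene length).

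The 2-sided quasi-likelihood test of edgeR 4.0.16 (R 4.3.3) was run on the counts, with TMM factors between 0.9914 and 1.016 and Benjamini-Hochberg adjustment over all 14667 genes that passed filterByExpr; they held 99.89% or more of each library's reads. Intervals of 95% came from the same fit and cover the spread between libraries. DESeq2 1.42.0 gave 3697 genes no adjusted p, and these stayed missing. CPM were computed from the counts with TMM factors, except for the cell type markers and TERT, which were scaled to the total count alone. Levels were compared between genes in the deposited RPKM.

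Among the 15 pairs of libraries none was a copy (smallest chi-square of the counts, per degree of freedom, 2.725). The labels give no batch. Positions are those of GENCODE 44, matched by Ensembl identifier for 57532 genes and not for 770, and promoter windows those of RefSeq. Figures were made with Python 3.11.15 and matplotlib 3.10.9. The test was checked on simulated counts.

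The members, partner lists, markers and motifs were chosen with earlier results of these data known. Named were MCM7, the members, the partners and genes within 500 kb that passed, the 3 nearest tested genes, and the 3 genes most like MCM7 and AP4M1. Alternatives covered scaling, the filter, DESeq2, limma 3.58.1 (voom, and the deposited RPM with a pseudocount of 0.5), the replicate number as a block, calls by both tools, thinning to the smallest library, windows of 100 and 1000 kb and leaving out each library in turn.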

Additional observations from a re-analysis of the deposited data

How the results depend on the processing

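The fall of MCM7 kept its direction and passed the threshold under all alternatives, with a log2 fold change between -3.197 and -2.948 (-3.197 to -3.1 on leaving out a library). Members past the threshold numbered 0 under all alternatives but thinning to the smallest library, where they were 2: LAMTOR4 (-0.26, adjusted p = 0.037, edgeR) and C7orf43 (0.50, adjusted p = 0.0386, edgeR). Over all alternatives the adjusted p of LAMTOR4 ran between 0.037 and 0.325 and that of C7orf43 between 0.0386 and 0.39. In 10 further random thinnings, added after seeing the data, 7 called 0 members and 2 called 1, with at most 2. Of 160 member values, 4 changed sign: AP4M1 under thinning (-0.0597), without control siRNA replicate 3 (-0.0131) and without MCM7 siRNA replicate 1 (-0.0424), and MBLAC1 without control siRNA replicate 3 (-0.0255). On leaving out a library AP4M1 ran between -0.0424 and 0.032, and MBLAC1 between -0.0255 and 0.298. Genes within 500 kb past the threshold numbered 1 under thinning and 3 in the window of 1000 kb, and 0 to 1 on leaving out a library (1 without MCM7 siRNA replicate 3). The 5 partner genes became 2 by DESeq2 and 2 by both tools, and 2 to 8 on leaving out a library (2 without control siRNA replicate 3, 8 without MCM7 siRNA replicate 3). All genes called numbered 1151 to 2265 on leaving out a library, with 1151 without control siRNA replicate 3. Members whose groups do not overlap numbered 6 to 7 on leaving out a library. Groups with fewer libraries separate more easily, and the share over all tested genes was not computed for these fits. No result about the members is drawn from this count. Between samples of the same replicate number, deviations from the group means were close to uncorrelated (correlations of -0.0122, -0.0259 and -0.0173). These values cannot show whether the samples were made as pairs. With the replicate block, MCM7 was at -3.156, 0 members and 4 partner genes passed, and 1961 genes in all. With the DESeq2 size factors the median of all genes moved by 0.00215 on the log2 scale, and by library size alone by 0.0121. With 13 to 44 reads per library, the changes of MBLAC1 and STAG3 are limited by depth.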
